A study of Oryctolagus cuniculus with 15 samples.

Results

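Solute carriers are the largest group of membrane transporters, and their expression was examined in corneal keratocytes cultured in 2D and 3D collagen environments. Genes were taken as members when their symbol had the form of a solute carrier name (SLC, a family number, the letter A and a member number, or SLCO and a number) and their mean over the 15 libraries was at least 1 FPKM (read counts scaled to gene length and library depth). Of 23428 genes in the table, 307 had such a symbol and 164 reached that level, in 41 families. The organic anion transporter SLCO1B3 was also to be kept because of its fall between 3DF and 2DC, and it met the limit by its own mean of 4.79 FPKM. Of the 143 genes below the limit, 17 had 0 counts in every library. Among the members, 4 symbol matches (SLC2A4RG, SLC7A6OS, SLC4A1AP and SLC9A3R1) are named after a transporter or its neighbour but are not transporters, which left 160 transporters. The members were thus chosen by their level, and the level itself is given as a description only.

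Solute carriers move nutrients, ions, metals, vitamins and metabolites across the plasma membrane and the membranes of mitochondria, lysosomes and the secretory pathway, either down a gradient or coupled to sodium, protons or another solute. In the cornea, which has no blood vessels, glucose, amino acids and lactate reach or leave the stromal cells by diffusion through the matrix and by carriers in their membranes. Bicarbonate carriers of the SLC4 family are best known there for the fluid transport of the endothelium.

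The cells were primary keratocytes of New Zealand white rabbits at first passage, kept for 6 days in a serum-free defined medium with ascorbic acid and non-essential amino acids, and the collagen was bovine type I. In 2DC the cells grew on collagen-coated dishes, in 2DF on top of a fibrillar collagen matrix and in 3DF inside such a matrix, with 100000 cells per matrix. The condition 3DF_50 had 50000 cells per matrix. Digestion medium was used before lysis in 2DC and in the fibrillar conditions 2DF, 3DF and 3DF_50. By contrast, 2DC_L cells from the same kind of dish as 2DC were lysed directly. Each condition had 3 libraries, each from pooled dishes or matrices of 1 experiment. As a model, the culture lacks serum and the neighbouring epithelium and endothelium, which were scraped off before isolation, stiffness differed between the fibrillar matrices and the coated dish, and effective cell density differed between 2D and 3D together with dimensionality.

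Between 14626982 and 31804255 reads were counted per library, and 149880 to 265007 of them fell on members. Libraries of the same condition had a median coefficient of variation over members between 8.22% (2DC) and 15.4% (3DF). Replicate 1 of 3DF lay apart from the other 3DF libraries on the second principal component (35.8 against 5.97 and 10.5). Keratocyte markers summed to 20500 FPKM or more in every library. Genes of the corneal epithelium summed to 14.1 to 21.4 FPKM in 3DF and to 0.817 to 1.93 FPKM in 2DC, with KRT4 at 0 in every library. All 8 of them tested in 3DF vs. 2DC were higher in 3DF, with a median log2 fold change of 3.9. For example, KRT12 had means of 0 FPKM in 2DC and 3.53 in 3DF, and KRT5 of 0.24 and 4.435. Proliferation genes summed to 49.5 to 195 FPKM in 2DC and to 50.5 to 59.2 FPKM in 3DF, and of the 12 tested in 3DF vs. 2DC 7 were lower, with a median log2 fold change of -3.19. Of these, MKI67 had means of 1.55 FPKM in 2DC and 0.00293 in 3DF, and CDK1 of 4.89 and 0.023. Vascular endothelial markers summed to 36.7 to 64.7 FPKM in 2DC and 124 to 128 in 3DF, of which KDR made up 46 and 114.2 on average. Of the 5 tested, 2 were higher in 3DF (KDR and EMCN) and 1 lower (TIE1, 0.26 and 0.0475 FPKM). Schwann cell and nerve markers summed to 24.6 to 33.1 FPKM in 2DC and 9.55 to 10.7 in 3DF. NCAM1 made up 23.9 and 3.22 of these on average, whereas SCN7A was higher in 3DF (0.638 and 1.61). The median log2 fold change of the 7 nerve markers tested was 0.442. The part of these cells and states in the results that follow was not tested. In bulk libraries, fewer cells of a type and less RNA per cell cannot be told apart.

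Together the members reached 3501 ± 87 FPKM in 3DF and 3474 ± 21.9 in 2DC_L (SD, n = 3). The sums were 3378 ± 19.9 in 2DC, 3258 ± 65.7 in 2DF and 3197 ± 88 in 3DF_50. As a share of all FPKM the members made up 0.858% in 3DF and 0.85% in 3DF_50. That share was 0.792% in 2DC_L, 0.778% in 2DC and 0.771% in 2DF, so its order differs from that of the sums. Sums by group below are in FPKM and were not divided by the total. The median member had a mean of 9.23 FPKM, with 52 members under 5 FPKM and 4 at or above 100 FPKM. The mitochondrial carriers of the SLC25 family were the largest group, with 35 members. They summed to 953.8 ± 34 FPKM in 2DC and 791.6 ± 29.7 FPKM in 3DF_50. The amino acid group, set by family, has 29 members and includes the creatine carrier SLC6A8 and the nucleobase carrier SLC43A3. SLC43A3 alone reached 79.2 FPKM in 2DF and 82.1 in 3DF. The group summed to less than the mitochondrial carriers in 2DC (783.1 ± 4.83 FPKM) and 2DC_L and to more in 2DF and 3DF_50. In 3DF its mean sum was higher (943.5 ± 89.2 FPKM), but library ranges overlapped (842.8 to 1012 against 860 to 886.1 FPKM). The order of these sums rests on the grouping. The zinc importers of the SLC39 family, with 10 members, reached 276.6 ± 3.74 FPKM in 2DC and 234.8 ± 5.67 in 3DF.

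The most abundant member was SLC25A3, the mitochondrial phosphate carrier, at 240.3 FPKM over the 15 libraries. SLC38A2, a sodium-coupled transporter of neutral amino acids, reached 167.9 FPKM, and its relative SLC38A10 reached 157.4 FPKM. The ADP/ATP carriers SLC25A4 and SLC25A5 had 131.7 and 98.1 FPKM, and as they are close paralogs, their separate levels are uncertain. Whether reads were shared between them was not tested. SLC3A2, the heavy chain that brings several amino acid exchangers to the membrane, had 94.9 FPKM. The nucleoside transporter SLC29A1 had 88.6 FPKM. It was followed among carriers of organic ions and nucleosides by SLC22A17 (69.6 FPKM) and SLC22A4 (47.3 FPKM). The highest metal transporters were the heme transporter SLC48A1 (66.5 FPKM) and the zinc transporters SLC39A1 (58.5) and SLC39A7 (57). Carriers of ions were led by the potassium-chloride cotransporter SLC12A4 (61.4 FPKM), the anion exchanger SLC4A2 (45.4) and the bicarbonate cotransporter SLC4A4 (40.2). The choline transporters SLC44A2 and SLC44A1 (58.1 and 49.9 FPKM) stood far above the ascorbate transporter SLC23A2 (7.98). Among carriers of fuels, the glucose transporter SLC2A1 (52.7 FPKM), the lactate carrier SLC16A1 (44.9) and SLC2A10 (27.1) were highest, and among those of the secretory pathway SLC35A4 (24.5), SLC35A2 (19.7) and the acetyl-CoA carrier SLC33A1 (19.5). Of the 164 members, 156 had a mean of at least 1 FPKM in each of the 5 conditions. The 8 others (SLC10A1, SLC10A6, SLC22A23, SLC25A35, SLC45A1, SLC4A8, SLCO1B3 and SLCO1C1) passed the limit through the conditions in which they are high, so a difference between conditions was built into their choice. Their levels are given as a description, and the count of DEGs is also given among the 156. At the edge of the rule, SLCO1C1 (1.01 FPKM), SLC10A6 (1.08) and SLC4A8 (1.12) lay just inside, and SLC12A7 (0.995), SLC25A47 (0.974) and SLC1A3 (0.92) just outside.

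**Figure D1:**
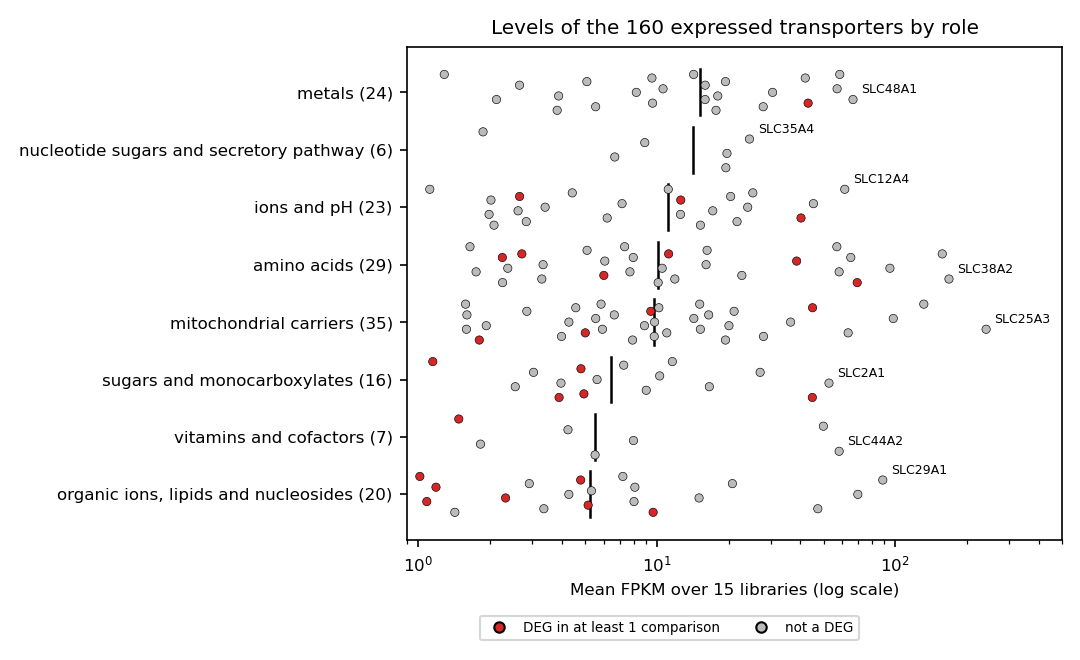
Mean FPKM over 15 libraries (log axis) of the 160 transporters, 1 point each, by role, with the number of members in brackets, the median as a bar and the highest member named. Red points are members called in at least 1 of 6 comparisons, and they lie both at low levels (SLCO1C1, 1.01 FPKM) and high ones (SLC7A8, 69.2 FPKM).

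The ratio of the highest to the lowest condition mean had a median of 1.47 over the members. It was under 1.5 in 86 members, between 1.5 and 2 in 47, at least 2 in 31 and at least 4 in 6. These classes were not counted over all genes. In 3DF vs. 2DC, the median absolute log2 fold change was 0.285 in members and 0.245 in genes averaging at least 1 FPKM. In 2DC vs. 2DC_L these values were 0.0859 and 0.0895. An F test over the 5 conditions (edgeR, Benjamini–Hochberg adjusted p up to 0.05) called 83 of the 164 members (50.6%), beside 41.8% of all genes tested and 45% of those with a mean of at least 1 FPKM. In pairwise comparisons a differentially expressed gene (DEG) passed an adjusted p of 0.05 in the quasi-likelihood F test of edgeR and changed at least 2-fold. The log2 fold change (log2FC) is given ± its standard error (SE) and the FPKM ± SD, and the p-values measure the spread between these 3 libraries per condition only. Of the members, 28 were called in at least 1 of the 6 comparisons made. Among them, 53.6% had under 5 FPKM, against 31.7% of all members. No such counts were made over all genes, so these describe the members only.

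**Figure D2:**
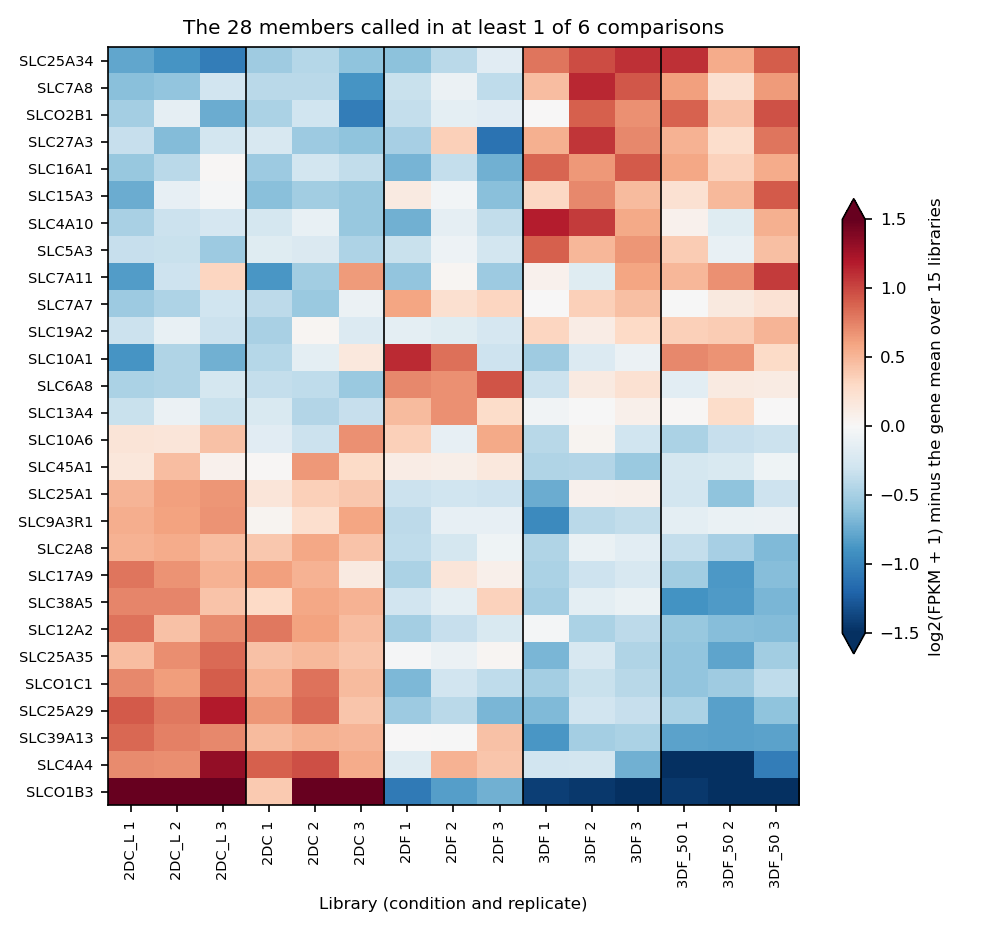
The 28 members called in at least 1 comparison (rows) in the 15 libraries (columns), coloured by log2(FPKM + 1) minus the mean of the gene. SLC25A34, SLC7A8 and SLC16A1 were high in the 3DF and 3DF_50 libraries, SLC6A8 was highest in the 2DF libraries, and SLC4A4, SLC39A13 and SLCO1B3 were highest in the 2DC_L and 2DC libraries.

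Cells inside the fibrillar matrix were first compared with cells on coated dishes (3DF vs. 2DC), the comparison in which both fibrils and dimensionality differ. Carriers of lactate, large neutral amino acids, inositol and bicarbonate were among those that rose, and carriers of bicarbonate, zinc and mitochondrial basic amino acids were among those that fell. All 164 members were tested and 16 were DEGs (9.76%), beside 7.56% of all genes tested and 6.19% of those with a mean of at least 1 FPKM. In 3DF, 8 members were higher, beside 3.24% of all genes, and 8 lower, beside 4.32%. Among the 156 members with at least 1 FPKM in every condition, 8 were higher and 4 lower (7.69%), beside 4.95% of the 10513 genes at that level. With a block for the prefix of the library name, 16 members were called (9.76%), beside 8.26% of all genes. Of the 16, 15 were among the 160 transporters. Scaled by library size alone, which moved the median log2FC of all genes to 0.187, the split was 12 higher and 6 lower. At that scaling DEGs were not counted over all genes, so the split describes the members only. With the adjusted p alone, 36 members (22%) passed, 21 higher and 15 lower, beside 15.4% of all genes. FPKM did not overlap between the conditions in 43.3% of the members and in 37.8% of all genes tested.

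Among transporters of fuels and osmolytes, SLC16A1 (chromosome 13, 51249967 to 51265673 of oryCun2), the monocarboxylate transporter that moves lactate and pyruvate with protons, had 28.1, 33.9 and 31.7 FPKM in 2DC and 76.3, 65.3 and 79.3 FPKM in 3DF. Every 3DF library lay above every 2DC library, with a log2FC of 1.23 ± 0.13 (edgeR adjusted p = 0.000599). SLC5A3 (unplaced scaffold Un0031, 870494 to 902817), which takes up myo-inositol with sodium, had 3.87, 3.76 and 3.01 FPKM in 2DC and 9.31, 6.79 and 7.76 in 3DF. The groups did not overlap, and the log2FC was 1.15 ± 0.15 (edgeR adjusted p = 0.00189). SLC45A1, a sugar transporter with low levels, had 1.12, 2.29 and 1.55 FPKM in 2DC and 0.529, 0.548 and 0.424 in 3DF. The other carriers of this role include the main glucose transporter SLC2A1, which stood at 54.96 ± 2.8 FPKM in 2DC and 55.8 ± 2.61 in 3DF, a log2FC of 0.01 ± 0.10 (edgeR adjusted p = 0.95). For SLC16A3, the monocarboxylate transporter of glycolytic cells, it was -0.07 ± 0.29 (edgeR adjusted p = 0.901).

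Amino acid and peptide carriers gave 2 DEGs, both higher in 3DF. SLC7A8 (chromosome 17, 43347403 to 43407052), an exchanger of neutral amino acids that pairs with SLC3A2, had 47.5, 47.4 and 33.7 FPKM in 2DC and 87.5, 139.9 and 120.9 in 3DF. All 3 libraries of 3DF were higher, although they spread more widely, and the log2FC was 1.43 ± 0.21 (edgeR adjusted p = 0.00299). SLC15A3 (chromosome 1, 193561400 to 193575375), a lysosomal carrier of histidine and small peptides, had 0.974, 1.13 and 1.06 FPKM in 2DC and 2.78, 4.04 and 3.25 in 3DF. The log2FC was 1.66 ± 0.22 (edgeR adjusted p = 0.00186). It overlaps TMEM132A on the opposite strand, whose log2FC was 0.35 (edgeR adjusted p = 0.345), and whether the counting used strand is not given in the sources used here. The heavy chain SLC3A2 passed the adjusted p but not the fold limit, with a log2FC of 0.68 ± 0.14 (edgeR adjusted p = 0.0142) and no overlap between the groups. The taurine transporter SLC6A6 likewise had a log2FC of 0.60 ± 0.12 (edgeR adjusted p = 0.0121). SLC1A5, a glutamine transporter, had a log2FC of -0.54 ± 0.29 (edgeR adjusted p = 0.262). SLC7A5, the other light chain of large neutral amino acids, stood at 4 ± 1.08 and 5.26 ± 0.495 FPKM (edgeR adjusted p = 0.235). The cystine carrier SLC7A11 overlapped between the groups, with 2.51, 3.48 and 8.99 FPKM in 2DC and 5.71, 4.67 and 8.7 in 3DF.

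Of the bicarbonate carriers, SLC4A10 was called as higher and SLC4A4 as lower, and SLC4A2, SLC4A3, SLC4A7 and SLC4A8 were not called. SLC4A10 (chromosome 7, 100780290 to 101109080), a sodium-coupled bicarbonate transporter, had 1.82, 2.13 and 1.28 FPKM in 2DC and 6.62, 5.99 and 4.01 in 3DF, a log2FC of 1.66 ± 0.24 (edgeR adjusted p = 0.00276). SLC4A4 (chromosome 15, 78487707 to 78813568), the electrogenic sodium bicarbonate cotransporter, was far more abundant and fell, from 63.1, 66 and 49.4 FPKM to 27.2, 27.4 and 19.8. Its log2FC was -1.27 ± 0.17 (edgeR adjusted p = 0.00202), with no overlap. SLC4A4 is also on the list of corneal endothelial markers. That list, SLC4A4 included, summed to 516 to 671 FPKM in 2DC and to 334 to 406 in 3DF. COL8A2 made up 303.5 and 122.8 FPKM of these on average. TMEM178A was also lower and ATP1B1 higher in 3DF, and the part of the endothelium in the fall of SLC4A4 was not tested. The anion exchanger SLC4A2 stood at 45.4 ± 1.37 FPKM in 2DC and 43.9 ± 2.83 in 3DF (edgeR adjusted p = 0.758). SLC12A2, the sodium-potassium-chloride cotransporter, narrowly missed the fold limit with a log2FC of -0.997 ± 0.16 (edgeR adjusted p = 0.00397). Not called were the phosphate carrier SLC20A1 with 0.63 ± 0.21 (edgeR adjusted p = 0.0752) and the sulfate carrier SLC26A2 with 0.53 ± 0.19 (edgeR adjusted p = 0.107).

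Among the 35 mitochondrial carriers, SLC25A34 rose and SLC25A29 fell. SLC25A34 (unplaced scaffold Un0093, 596859 to 600529), a carrier whose substrate is not well established, had 2.6, 2.87 and 2.43 FPKM in 2DC and 8.08, 9.26 and 10.1 in 3DF. It had the highest log2FC of the members, 1.79 ± 0.15 (edgeR adjusted p = 0.000284). SLC25A29 (unplaced scaffold Un0206, 61505 to 73672), which carries basic amino acids into mitochondria, fell from 13.7, 15.7 and 11.4 FPKM to 4.87, 6.61 and 6.29, a log2FC of -1.21 ± 0.18 (edgeR adjusted p = 0.00322). SLC25A35, an orphan carrier, had 2.58, 2.69 and 2.51 FPKM in 2DC and 0.634, 1.22 and 0.918 in 3DF. It overlaps RANGRF on the opposite strand, which had a log2FC of -0.66 (edgeR adjusted p = 0.0349). The abundant SLC25A3 stood at 274 ± 11.7 FPKM in 2DC and 234.8 ± 21.3 in 3DF (edgeR adjusted p = 0.218).

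One of the 24 metal transporters was called. SLC39A13 (chromosome 1, 186725803 to 186732372), a zinc transporter of intracellular membranes needed for normal connective tissue, had 55, 57.2 and 56.3 FPKM in 2DC and 20.9, 27.4 and 27.9 in 3DF. The 2DC libraries lay close together and well above those of 3DF, with a log2FC of -1.15 ± 0.14 (edgeR adjusted p = 0.00115). SLC39A7, which releases zinc from the endoplasmic reticulum, passed the adjusted p with a log2FC of -0.57 ± 0.12 (edgeR adjusted p = 0.0141). The iron exporter SLC40A1 passed it in the other direction with 0.61 ± 0.15 (edgeR adjusted p = 0.0291). SLC39A1 and SLC39A14 had log2FC values of 0.03 and 0.01 (edgeR adjusted p = 0.888 and 0.949). For the zinc and manganese importer SLC39A8 it was 0.54 (edgeR adjusted p = 0.146) and for the zinc exporter SLC30A1 0.39 (edgeR adjusted p = 0.342).

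Among carriers of organic ions, lipids and vitamins, SLC27A3, of the fatty acid transport family, rose from 7.2, 5.67 and 5.37 FPKM in 2DC to 13, 19.5 and 15 in 3DF, a log2FC of 1.37 ± 0.19 (edgeR adjusted p = 0.0023). SLCO2B1, a transporter of organic anions such as steroid sulfates, had 1.19, 1.48 and 0.482 FPKM in 2DC and 2.04, 4.66 and 3.9 in 3DF. Its log2FC was 1.73 ± 0.42 (edgeR adjusted p = 0.0263), and the call was lost without 3DF replicate 2 or 3 or 2DC replicate 1 or 3. The ascorbate transporter SLC23A2 and the choline transporter SLC44A1 passed the adjusted p below the fold limit, at a log2FC of 0.63 ± 0.10 (edgeR adjusted p = 0.00483) for the former and of 0.91 ± 0.18 (edgeR adjusted p = 0.0118) for the latter. The folate carrier SLC19A1 had a log2FC of 0.34 ± 0.17 (edgeR adjusted p = 0.218). The last DEG, SLC9A3R1, encodes a scaffold protein and had a log2FC of -1.29 ± 0.34 (edgeR adjusted p = 0.034). Its call was lost without 3DF replicate 2 or 3 or 2DC replicate 2 or 3, and it overlaps NAT9 on the opposite strand, for which the adjusted p was 0.881.

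SLCO1B3 (chromosome 8, 18828099 to 18892742), known as an organic anion and bile acid transporter of the liver, had 2.92, 10.4 and 18.9 FPKM in 2DC and 0.116, 0.0914 and 0.0205 in 3DF. It was kept for this difference, so these levels are a description. In 2DF it had 0.425, 0.68 and 0.809 FPKM, between both. The 2DC libraries differed among themselves more for SLCO1B3 than for the other members (coefficient of variation 74.5%), and in the same order as the proliferation gene MKI67, which had 0.199, 1.09 and 3.36 FPKM. In 2DC_L the order was not shared, since SLCO1B3 had 13.2, 14.3 and 9.92 FPKM and MKI67 0.933, 1.05 and 2.54. The part of proliferating cells in the SLCO1B3 level was not tested. SLCO1C1 (chromosome 8, 18917870 to 18979767), a thyroid hormone transporter, lies 25128 bases from SLCO1B3 on the same strand. It had 1.67, 2.27 and 1.59 FPKM in 2DC and 0.3, 0.472 and 0.392 in 3DF. The other neighbouring members of 1 family, such as SLC38A1 and SLC38A2 (25156 bases apart), were not DEGs in 3DF vs. 2DC.

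**Figure D3:**
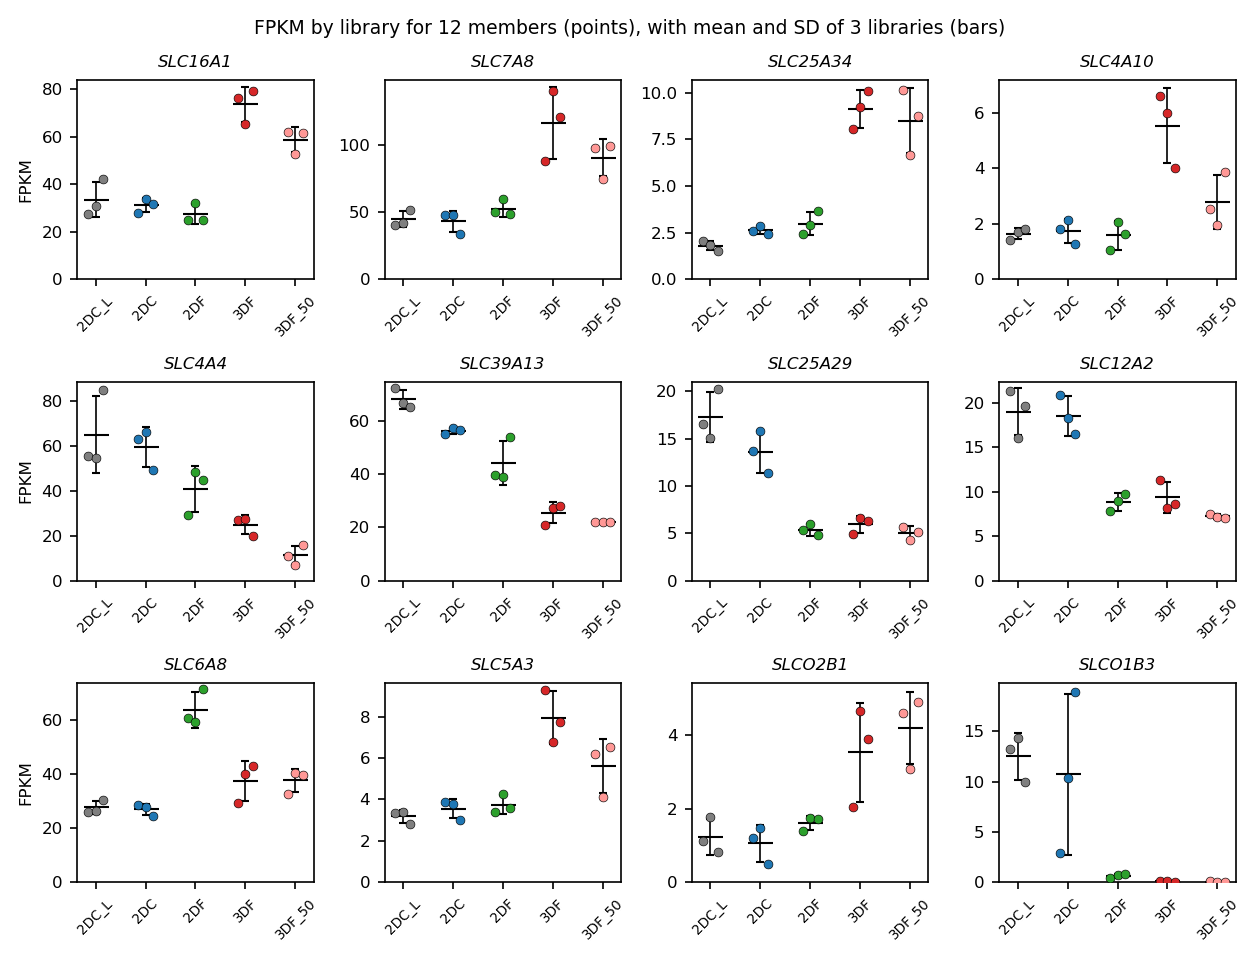
FPKM of 12 members in each library (points, linear axes from 0), with the mean and SD of 3 libraries (bars), by condition. The 3DF and 3DF_50 points of SLC16A1 lie at 52.9 FPKM or more and all others at 42 FPKM or less, and SLC6A8 stands out in 2DF with 59.1 to 71.2 FPKM.

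The effect of a fibrillar surface without embedding was examined in 2DF vs. 2DC. The DEGs that rose were the creatine transporter SLC6A8, the sulfate transporter SLC13A4 and the exchanger light chain SLC7A7. Of 164 members tested, 7 were DEGs (4.27%), beside 4.96% of all genes tested and 4.14% of those with a mean of at least 1 FPKM, a share near the background. Of them, 3 were higher in 2DF (2.04% of all genes) and 4 lower (2.93% of all genes). Among the 156 members at 1 FPKM in every condition, 3 were higher and 2 lower (3.21%), beside 3.16% of the genes at that level. By the adjusted p alone 26 members passed, 10 higher and 16 lower, beside 14.4% of all genes. The creatine transporter SLC6A8 had 28.4, 27.8 and 24.4 FPKM in 2DC and 60.6, 59.1 and 71.2 in 2DF. The groups were far apart relative to their spread, with a log2FC of 1.25 ± 0.10 (edgeR adjusted p = 0.000271). The sulfate transporter SLC13A4 had 3.09, 2.52 and 2.77 FPKM in 2DC and 5.65, 6.68 and 4.8 in 2DF, a log2FC of 1.03 ± 0.15 (edgeR adjusted p = 0.0028). It was no longer called without 2DF replicate 2 or 2DC replicate 2. SLC7A7, the light chain of a basic amino acid exchanger, had a log2FC of 1.01 ± 0.22 (edgeR adjusted p = 0.0184) and lost its call without 2DF replicate 1 or 2DC replicate 1 or 2.

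Lower in 2DF than in 2DC were SLC25A29 and SLC12A2, besides SLCO1C1 and SLCO1B3, which are described by level. SLC25A29 had 5.37, 6.02 and 4.76 FPKM in 2DF, all below the lowest 2DC library at 11.4 FPKM, with a log2FC of -1.33 ± 0.15 (edgeR adjusted p = 0.000996). SLC12A2 (chromosome 3, 11738449 to 11831481), which brings chloride into cells, had 20.9, 18.2 and 16.5 FPKM in 2DC and 7.84, 8.92 and 9.76 in 2DF. Its log2FC of -1.06 ± 0.12 (edgeR adjusted p = 0.00085) lay close to the fold limit, and it was not called without 2DF replicate 1 or 2DC replicate 1. SLCO1C1 had 0.169, 0.526 and 0.432 FPKM in 2DF. Below the fold limit, SLC6A6 had a log2FC of 0.62 ± 0.10 (edgeR adjusted p = 0.0038), and SLC29A1 of -0.66 ± 0.16 (edgeR adjusted p = 0.0297). The 2DF libraries share no name prefix with those of 2DC or 3DF. Replicates 2 and 3 of 2DF (E9 and E10) have prefixes found in no other condition, and replicate 1 (E5) shares its prefix with 3DF_50 replicate 2 only. In a model of all 5 conditions with the prefix as a block, the 2DF effect therefore rests on that 1 library. Such a model cannot decide whether members differ here, so its counts are not given.

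Dimensionality at a fibrillar substrate was addressed by 3DF vs. 2DF. Of 164 members, 8 were DEGs (4.88%), beside 3.78% of all genes tested and 3.42% of those with a mean of at least 1 FPKM. Of these, 6 were higher in 3DF (2.09% of all genes) and 2 lower (1.69% of all genes). The 156 members at 1 FPKM in every condition gave the 6 higher and 0 lower (3.85%), beside 2.78% of the genes at that level. By the adjusted p alone 15 members passed, beside 6.05% of all genes. SLC16A1 had 25.1, 32.1 and 24.7 FPKM in 2DF, and its log2FC was 1.43 ± 0.15 (edgeR adjusted p = 0.000885). SLC4A10 had 1.04, 2.08 and 1.62 FPKM in 2DF and the highest log2FC, 1.82 ± 0.27 (edgeR adjusted p = 0.00369). SLC25A34 had 2.4, 2.91 and 3.63 FPKM in 2DF, with a log2FC of 1.62 ± 0.20 (edgeR adjusted p = 0.00165). In each of these genes the 3 libraries of 3DF lay above all 2DF libraries.

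SLC7A8, with 49.7, 59.4 and 48.3 FPKM in 2DF, had a log2FC of 1.15 ± 0.18 (edgeR adjusted p = 0.00588) and lost its call without 3DF replicate 2. SLC5A3, with 3.4, 4.26 and 3.59 FPKM in 2DF, had 1.09 ± 0.16 (edgeR adjusted p = 0.00333) and lost its call without 3DF replicate 1. SLCO2B1 (log2FC 1.13 ± 0.29, edgeR adjusted p = 0.0465) lost its call on leaving out any 1 library other than 3DF replicate 1. The lower DEGs were SLC45A1, with 1.27, 1.24 and 1.33 FPKM in 2DF, and SLCO1B3, both described by level. SLC6A8 passed the adjusted p with -0.77 ± 0.16 (edgeR adjusted p = 0.0223), as did SLC39A13 with -0.79 ± 0.17 (edgeR adjusted p = 0.0227) and SLC29A1 with 0.98 ± 0.19 (edgeR adjusted p = 0.0131). With the prefix block the 2DF effect again rests on 2DF replicate 1 alone, so that model cannot decide this comparison either. The comparisons among 2DC, 2DF and 3DF share libraries, so their calls do not bear on each other independently.

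**Figure D4:**
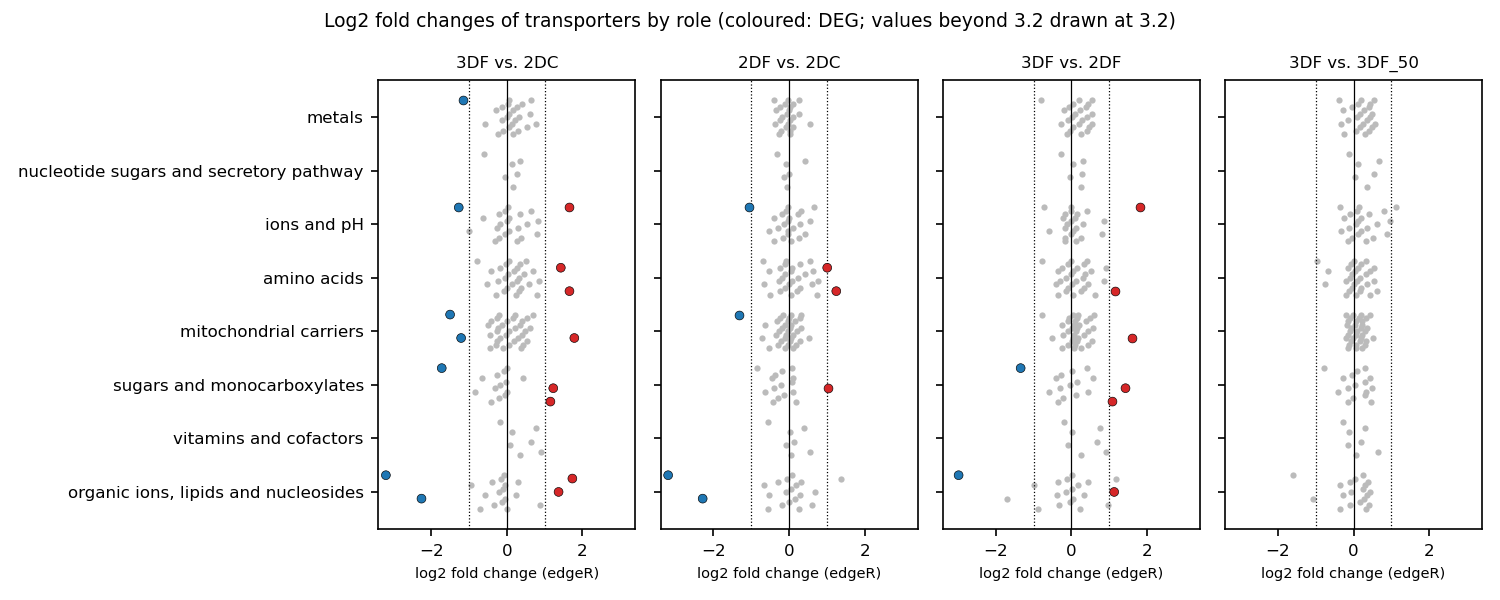
Log2FC values (edgeR) of the 160 transporters by role in 4 comparisons, 1 point per gene, with DEGs in red (higher) or blue (lower) and dotted lines at the 2-fold limit. SLCO1B3, the leftmost blue point of the bottom row, was chosen for its fall in 3DF vs. 2DC and is drawn at the edge of the axis where it lies beyond it. Coloured points are few against the grey ones, and 3DF vs. 3DF_50 has none.

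Levels in the 5 conditions set side by side show 3 forms. SLC16A1 had 73.7 ± 7.38 FPKM in 3DF and 58.8 ± 5.11 in 3DF_50 against 33.5 ± 7.54 (2DC_L), 31.2 ± 2.94 (2DC) and 27.3 ± 4.15 (2DF), so that 3D and 2D conditions formed separate ranges. SLC4A4 went from 64.9 ± 17.1 FPKM in 2DC_L and 59.5 ± 8.86 in 2DC through 40.7 ± 10.3 in 2DF and 24.8 ± 4.3 in 3DF to 11.3 ± 4.33 in 3DF_50. Of its neighbouring steps, 2DF vs. 2DC had an adjusted p of 0.0868, 3DF vs. 2DF of 0.0784 and 3DF vs. 3DF_50 of 0.0827 in edgeR. SLC6A8 was highest in 2DF, at 63.6 ± 6.59 FPKM, against 26.9 ± 2.14 in 2DC and 37.3 ± 7.28 in 3DF. Among the 83 members that differed over the 5 conditions, 29 (34.9%) were highest in 2DC_L and 23 (27.7%) in 3DF, and 32 (38.6%) were lowest in 3DF_50, beside 29.9%, 25.6% and 33.3% of the 5020 genes that differed.

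Cell density inside the matrix was compared in 3DF vs. 3DF_50. Of 163 members tested with edgeR, 0 were DEGs, beside 0.452% of all genes tested, and 41 (25.2%) had an unadjusted p under 0.05, beside 20% of all genes. The smallest adjusted p, 0.0678, was that of SLC29A2, a nucleoside transporter chosen here after its values were seen, which had 4.47 ± 0.849 FPKM in 3DF and 9.23 ± 2.23 in 3DF_50 (log2FC -1.07 ± 0.22, edgeR). SLC4A4 had 27.2, 27.4 and 19.8 FPKM in 3DF and 10.9, 7.09 and 15.7 in 3DF_50, a log2FC of 1.12 ± 0.26 (edgeR adjusted p = 0.0827) with no overlap. DESeq2 called 3 members, SLC29A2, SLC4A4 and SLC10A1 (adjusted p = 0.000819, 0.000822 and 0.0398), which is 1.83% of the members beside 1.06% of all genes.

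The digestion step was compared in 2DC vs. 2DC_L. With edgeR, 0 of 163 members were DEGs, beside 0.265% of all genes tested. At an unadjusted p under 0.05 there were 7 members (4.29%), beside 5.73% of all genes, and DESeq2 called 0 members, beside 0.258% of all genes. The smallest adjusted p was 0.483, for SLC39A13, which had 56.2 ± 1.15 FPKM in 2DC and 68 ± 3.67 in 2DC_L. The largest log2FC of a higher member was 0.55 ± 0.18, for SLC25A34.

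The other pair of 3D and 2D conditions, 3DF_50 vs. 2DC_L, shares no library with 3DF vs. 2DC, although some libraries share a name prefix. Of 164 members, 20 were DEGs (12.2%), beside 13.5% of all genes tested and 10.8% of those with a mean of at least 1 FPKM, a share near the background. In 3DF_50, 8 were higher, beside 5.05% of all genes, and 12 lower, beside 8.47%. Among the 156 members at 1 FPKM in every condition, 7 were higher and 8 lower (9.62%), beside 8.76% of the genes at that level. With the prefix block 22 members were called (13.4%), beside 12.1% of all genes. By the adjusted p alone 92 members passed, beside 42.9% of all genes. Scaled by library size alone, which moved the median log2FC of all genes to 0.359, 31 were called, 21 higher and 10 lower. No share over all genes was counted at that scaling, so this describes the members only. FPKM did not overlap in 63.4% of the members and in 55.2% of all genes tested. The comparison differs from 3DF vs. 2DC in cell density and in its libraries. Digestion also differs, since it was used in 3DF_50 but not in 2DC_L, whereas 3DF and 2DC both had it.

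Carriers that rose in 3DF_50 included SLC25A34 with 10.1, 6.66 and 8.73 FPKM against 2.02, 1.82 and 1.53 in 2DC_L, a log2FC of 2.23 ± 0.19 (edgeR adjusted p = 1.41e-05). SLCO2B1 rose with a log2FC of 1.74 ± 0.27 (edgeR adjusted p = 0.000654) and kept its call without any 1 library. SLC27A3 (log2FC 1.08 ± 0.16, edgeR adjusted p = 0.000595), SLC15A3 (log2FC 1.23 ± 0.34, edgeR adjusted p = 0.0146) and SLC7A8 (log2FC 1.03 ± 0.13, edgeR adjusted p = 0.000237) were also higher. The call of SLC27A3 was lost without 3DF_50 replicate 3 or 2DC_L replicate 2, that of SLC15A3 without 3DF_50 replicate 3 or 2DC_L replicate 1, and that of SLC7A8 without 3DF_50 replicate 1 or 3 or 2DC_L replicate 1 or 2. SLC16A1 had 62.1, 52.9 and 61.4 FPKM against 27.6, 30.9 and 42 in 2DC_L, and its log2FC of 0.82 ± 0.14 (edgeR adjusted p = 0.00139) lay below the fold limit.

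Another 3 members were higher in 3DF_50. The cystine-glutamate exchanger SLC7A11 had 2.62, 4.2 and 7.07 FPKM in 2DC_L and 8.11, 9.33 and 12.3 in 3DF_50, a log2FC of 1.13 ± 0.29 (edgeR adjusted p = 0.0116), and was not called without 3DF_50 replicate 3 or 2DC_L replicate 1. The thiamine transporter SLC19A2 had 0.943, 1.25 and 0.936 FPKM and 2.11, 2.17 and 2.45, with a log2FC of 1.10 ± 0.21 (edgeR adjusted p = 0.00243). SLC10A1, a bile acid transporter, had 2, 11 and 3 counts in 2DC_L and 34, 34 and 24 in 3DF_50.

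Among the members that were lower in 3DF_50, SLCO1B3 had 925, 979 and 397 counts in 2DC_L and 4, 0 and 0 in 3DF_50 (means of 12.5 ± 2.31 and 0.0313 ± 0.0542 FPKM). SLCO1C1 had 2.07, 1.88 and 2.5 FPKM in 2DC_L and 0.235, 0.288 and 0.433 in 3DF_50. SLC4A4 had 55.2, 54.8 and 84.7 FPKM and 10.9, 7.09 and 15.7, a log2FC of -2.52 ± 0.27 (edgeR adjusted p = 7.2e-05). Here the endothelial list, SLC4A4 included, summed to 613 to 737 FPKM in 2DC_L and 205 to 262 in 3DF_50. COL8A2 made up 340.7 and 74.7 FPKM of these on average. Of the 10 genes of this list tested, 4 were lower in 3DF_50 (COL8A2, SLC4A4, ALCAM and TMEM178A). The 1 higher gene, ATP1B1, went from 5.88 to 17.2 FPKM. The epithelial list summed to 1.06 to 2.15 FPKM in 2DC_L and 0.85 to 11.3 in 3DF_50.

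SLC39A13 had 72.1, 66.7 and 65.1 FPKM in 2DC_L and 22, 21.9 and 22 in 3DF_50, a log2FC of -1.63 ± 0.08 (edgeR adjusted p = 5.99e-07). The 3 libraries of 3DF_50 were nearly equal and lay far below those of 2DC_L. SLC25A35 had 3.21 ± 0.562 FPKM in 2DC_L and 0.70 ± 0.166 in 3DF_50. The other mitochondrial carriers were SLC25A29 (log2FC -1.78 ± 0.15, edgeR adjusted p = 1.31e-05) and the citrate carrier SLC25A1 (log2FC -1.01 ± 0.10, edgeR adjusted p = 4.57e-05). The call of SLC25A1 was lost without 3DF_50 replicate 2 or 2DC_L replicate 2 or 3. The vesicular nucleotide carrier SLC17A9 went from 8.18 ± 0.904 FPKM in 2DC_L to 2.63 ± 0.423 in 3DF_50, and SLC38A5 from 16.7 ± 2.1 to 5.5 ± 0.504. SLC17A9 fell by 1.64, the glutamine carrier SLC38A5 by 1.61, SLC12A2 by 1.39 and the intracellular hexose carrier SLC2A8 by 1.24 on the log2 scale. The steroid sulfate carrier SLC10A6 had 1.44 ± 0.244 FPKM in 2DC_L and 0.554 ± 0.0854 in 3DF_50. It overlaps C15H4orf36 on the same strand, whose log2FC was 0.09 (edgeR adjusted p = 0.901). Among members under the fold limit, SLC39A7 (log2FC -0.77 ± 0.08, edgeR adjusted p = 3.79e-05) and SLC35A2, the UDP-galactose carrier of the Golgi (log2FC -0.94 ± 0.08, edgeR adjusted p = 2.11e-05), were lower, and SLC3A2 (log2FC 0.79 ± 0.08, edgeR adjusted p = 5.81e-05) and SLC23A2 (log2FC 0.82 ± 0.08, edgeR adjusted p = 3.11e-05) were higher.

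Of the members called in 3DF vs. 2DC (16) and in 3DF_50 vs. 2DC_L (20), 11 were called in both in the same direction, which is 68.8% of the former and 55.0% of the latter, and 0 in opposite directions. For all genes these shares were 77.5% of 1020 and 43.9% of 1801. Among genes with at least 1 FPKM in every condition, 8 members were called in both, 66.7% of 12 and 53.3% of 15, beside 82.7% of 520 and 46.7% of 921 for all genes. All 16 calls of 3DF vs. 2DC kept their sign in the other comparison, and this was not counted over all called genes. The 16 include SLCO1B3, kept for its fall. They also include SLCO1C1, SLC25A35 and SLC45A1, which passed the limit through 2D conditions, so a difference was built into their choice. Over the 164 members the log2FC values of both comparisons had a Pearson r of 0.894 (0.803 without SLCO1B3) and a Spearman rho of 0.777, a description across genes, which are not independent replicates. Over 13157 genes tested in both r was 0.828, and the sign differed in 25.6% of the members and 24.2% of all genes. The 11 genes were SLC25A34, SLCO2B1, SLC15A3, SLC7A8 and SLC27A3 on the higher side and SLCO1B3, SLCO1C1, SLC25A35, SLC4A4, SLC25A29 and SLC39A13 on the lower side. Of them, SLCO1B3, SLCO1C1 and SLC25A35 are described by level. The counts without them are those at 1 FPKM in every condition.

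**Figure D5:**
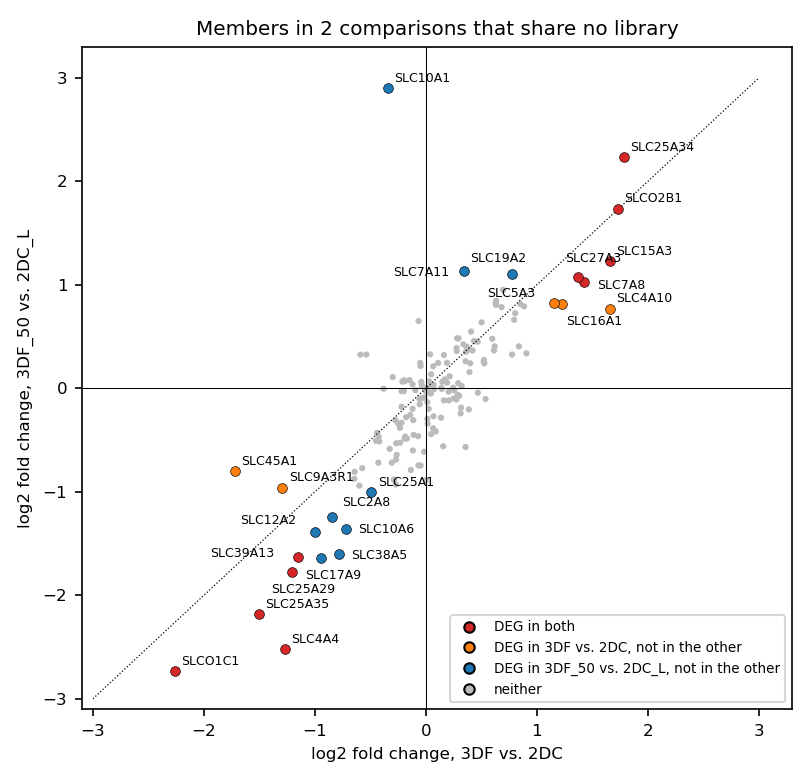
Log2FC values (edgeR) of 163 members in 3DF vs. 2DC (x axis) and 3DF_50 vs. 2DC_L (y axis), with called members coloured and named and a dotted line at equal values. SLCO1B3 lies outside the axes and is not drawn. The coloured points lie at lower left and upper right, and SLC10A1 alone among them at upper left.

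Other transport genes were taken from lists of related families. Of 9 subunits of sodium and calcium pumps tested in 3DF vs. 2DC, 2 were higher and 0 lower, with a median log2FC of -0.01 beside 0.01 over all genes. ATP1B1 and ATP1B2, the first of them also on the endothelial list, are beta subunits of the sodium pump, whose gradient drives sodium-coupled carriers such as SLC4A4, SLC5A3 and SLC6A8. ATP1B1 rose from 6.45 ± 2.2 to 22.7 ± 3.1 FPKM (edgeR adjusted p = 0.0023) and ATP1B2 from 3.29 ± 0.715 to 8.58 ± 0.568 (edgeR adjusted p = 0.0033). Of 21 ABC transporters, 3 were higher and 1 lower, led by the cholesterol exporter ABCA1, which rose from 14.3 ± 0.457 to 93.1 ± 13.7 FPKM (log2FC 2.69 ± 0.14, edgeR adjusted p = 6.84e-05). Of 15 genes of iron, zinc and copper handling, 0 were higher and 1, the copper pump ATP7B, was lower (log2FC -1.31 ± 0.14, edgeR adjusted p = 0.0006). Of 26 genes of the ATF4 and amino acid response, 3 rose and 2 fell in 3DF vs. 2DC, while 8 rose and 6 fell in 3DF_50 vs. 2DC_L. Of 23 hypoxia genes, 2 rose and 3 fell in 3DF vs. 2DC, with a median log2FC of -0.04 for the former list and 0.15 for the latter. For scale, DEGs made up 7.56% of all genes tested in 3DF vs. 2DC and 13.5% in 3DF_50 vs. 2DC_L. Whether the counts of these lists depart from those shares was not tested. The water channel AQP1 had 583.9 ± 109.7 FPKM in 2DF against 221.9 ± 126.7 in 2DC (edgeR adjusted p = 0.0433), and 1369 ± 223.5 in 3DF_50 against 262.3 ± 186.5 in 2DC_L (edgeR adjusted p = 0.00123). In 3DF vs. 2DC its adjusted p was 0.051.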

How the data were processed

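Bulk RNA-seq of 15 libraries, 3 for each of 5 conditions, was used. The authors aligned reads to oryCun2 with HISAT2 and counted them per gene with featureCounts, and the deposited counts are whole reads with no normalization. The deposited FPKM values are those counts scaled by the authors to gene length and library size. Library totals set the precision, and the SD and SE given are between libraries, which the paper describes as separate experiments. Counts of the 2 conditions compared were fitted with edgeR 4.0.16 (R 4.3.3) after TMM scaling and its filterByExpr (minimum count 10), and tested by the quasi-likelihood F test, two-sided, with Benjamini–Hochberg adjustment over all genes tested. The SE is the log2 fold change divided by the square root of F. The fits were tested on simulated data.

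The members, gene lists and comparisons were chosen with earlier results of these data known. Named are up to 6 DEGs per direction and comparison with their libraries, other DEGs by fold change, the 3 highest members of each role, a fixed set of carriers (1 of them is not reported here), and the genes at the edge of the rule. Carriers whose family name has another letter than A, such as most of SLC35, were not included, nor were SLC4A11 and SLCO2A1, which are not members. Alternatives were DESeq2 1.42.0, its size factors, library size alone, no filter, all conditions in the fit, replicate or prefix blocks, limma 3.58.1 on log2(FPKM + 1) or log2(FPKM + 0.1), other limits, and each library left out. Shares among genes with a mean of at least 1 FPKM, over all libraries or in every condition, were added after the data were seen. Summaries and figures used pandas 2.3.3, numpy 2.4.6, matplotlib 3.10.9 and Python 3.11.15. Sequencing reads were not analysed here.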

Additional observations from a re-analysis of the deposited data

How the results depend on the processing

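Of 48 called pairs of member and comparison (SLCO1B3 counted in 3DF_50 vs. 2DC_L only), 27 were called under every alternative other than the prefix block, and 0 changed direction. The counts of DEGs moved by more than 1.5 times as follows. Except where given above, shares over all genes were not counted for the settings of this section, so the counts describe the members only. With no limit on the fold change there were 36 in 3DF vs. 2DC, 26 in 2DF vs. 2DC, 15 in 3DF vs. 2DF and 92 in 3DF_50 vs. 2DC_L. Members with a mean of at least 5 FPKM gave 7, 3, 3 and 11 in the same order. The prefix block left 44 members that differed over the 5 conditions. For 2DF vs. 2DC and 3DF vs. 2DF its counts are not given, since 2DF shares a prefix with 3DF_50 only, through 1 library. With limma on log2(FPKM + 1) there were 4 in 2DF vs. 2DC and 4 in 3DF vs. 2DF. Library size alone gave 31 in 3DF_50 vs. 2DC_L. In 3DF vs. 3DF_50, DESeq2 called 3, no filter 2 and all 5 conditions in the fit 2 (SLC29A2 and SLC4A4 in both), the replicate block 1 (SLC29A2) and the prefix block 1 (SLC7A11), and the cause was not tested. Without 1 library at a time the counts were 15 to 19, 5 to 9, 7 to 8, 0 to 1 (SLC4A4 without 3DF_50 replicate 3), 0 to 0 and 17 to 20 for 3DF vs. 2DC, for 2DF against 2DC, for 3DF against 2DF, for 3DF against 3DF_50, for 2DC against 2DC_L and for 3DF_50 against 2DC_L, and 71 to 93 over the 5 conditions. The highest, 19, was without 3DF replicate 1. Without 3DF_50 replicate 3, the split in 3DF_50 vs. 2DC_L was 4 higher and 16 lower.

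The replicate numbers did not pair the libraries throughout. Correlations of same-numbered deviations ran from -0.0957 to 0.313, and in no comparison were all above 0.1. A shared prefix joined replicates 1 and 2 of 2DC and 2DC_L (0.313 and 0.0769) and replicate 3 of 3DF_50 and 2DC_L (0.232). The main fits used no pairing. With the replicate number as a block (replicate block) there were 17, 7, 9, 1, 0 and 20 DEGs in the order above. Log2 fold changes near 0 that changed sign were, in 3DF vs. 2DC, those of SLC2A1 (-0.0308 to 0.0489 without 1 library), SLC16A3 (0.11 by library size, -0.30 to 0.10 without 1 library), SLC39A14 (-0.0575 to 0.0719 without 1 library), SLC39A1 (-0.0303 with the prefix block, -0.0172 to 0.0826 without 1 library), SLC4A2 (0.12 by library size, -0.0927 to 0.00131 without 1 library) and SLC7A11 (-0.51 with the prefix block). In 3DF_50 vs. 2DC_L they were those of SLC2A1 (-0.00687 with no filter, -0.11 to 0.0742 without 1 library), SLC39A14 (0.0618 by library size), SLC4A2 (0.26 by library size), SLC39A8 (0.25 by library size) and SLC29A1 (0.28 by library size, 0.0169 with the prefix block, -0.16 to 0.0187 without 1 library). At 14626982 to 31804255 counts per library, members near 1 FPKM such as SLC10A1 rest on few counts (2 to 49 per library).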
